A study of Mus musculus with 30 samples.

Results

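CTCF sites at gene promoters are the places where CTCF was bound next to the start of a protein-coding gene. They were chosen by the presence of a CTCF peak in WT and by position. The summits of the 3 wild-type (WT) CTCF peak lists were linked within 150 bp, a site was kept when all 3 lists had a peak over the median summit, and a site on an autosome was a promoter site when that summit lay within 1 kb of the start of an mm10 RefSeq protein-coding gene. The rule found 2842 promoter sites among 46282 autosomal CTCF sites. They are compared with the 42371 sites farther than 1 kb from any such start. Another 1069 sites lay within 1 kb of an end of a gene whose strand was not given and were left out of both sets. The 2 promoter sites closest to the 1 kb limit were at Arhgef2 (998 bp before the start) and Tasp1 (997 bp after it), and the 2 closest sites outside it were at Itprid1 and Tmem229b (each 1 bp beyond it).

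CTCF is a DNA-binding zinc-finger protein that recognises a long, asymmetric sequence and blocks the movement of cohesin, the ring complex that extrudes chromatin loops. RAD21 is the subunit that closes the cohesin ring, so a RAD21 peak marks cohesin held on chromatin. CTCF bound next to a gene start is known from work in other systems to bring promoters together with distant enhancers, while many other CTCF sites mark domain borders.

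The libraries were made by ChIPmentation, chromatin immunoprecipitation with adapters inserted by the transposase Tn5 on the beads, with trunk tissue of E10.5 mouse embryos of the B6CBAF1 background. The embryos were WT littermates and homozygotes of 6 alleles in which 1 or more of 5 CTCF binding sites (CBS) of the Hoxd gene cluster were mutated on the same chromosome, called Del(CBS2), Del(CBS1) and, with sites added from the first on, Del(CBS1-2) up to Del(CBS1-5). WT embryos gave 3 CTCF and 4 RAD21 libraries, Del(CBS1) 3 of each antibody, Del(CBS2) 1 of each and Del(CBS1-2) 1 for CTCF and 2 for RAD21. The remaining 3 alleles gave 2 libraries of each antibody. Embryos were dissociated one by one. The trunk is a mixture of cell types, so a site bound in fewer cells and a site bound less in each cell cannot be told apart.

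The lists held 40011 to 88323 CTCF peaks and 16676 to 48102 RAD21 peaks, and the read depth behind them was unknown. A site was detected in a library when a peak of its list covered the site. Its strength was the percentile of that peak's fold enrichment, the authors' own value, among all CTCF sites detected in the same library, so that 50 is the middle of the list. As a check of the labels, exactly 1 CTCF site each followed the genotype names of CBS3, CBS4 and CBS5 in 14 of 14 CTCF libraries, and all 3 lay in the Hoxd cluster. No Hoxd site followed CBS1 or CBS2 in every library (2 libraries off pattern at best). For CBS2 the site found this way was the same one that followed CBS3. The check therefore bears out neither the CBS1 nor the CBS2 part of the labels, including those of the single Del(CBS1-2) and Del(CBS2) CTCF libraries. Elsewhere in the genome 8 CTCF sites followed the names of CBS1, 1 of them a promoter site (Elfn1, named after its values were seen), and none followed those of CBS2. None of the Hoxd sites of this check was a promoter site by the start of the gene span, but the one that followed CBS4 lay 112 bp from a transcript start of Hoxd10 in the RefSeq promoter table.

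The CTCF recognition sequence was searched in the RefSeq promoter windows (GRCm38.p6), which run from 250 bp before to 50 bp after a transcript start. A window held the summit of 1048 of the 2842 promoter sites. The core searched on both strands was CCA, 2 bases of any kind, AG, 2 bases of any kind and GGC. A looser form, with any base in place of the first A, includes every match of the stricter one. The stricter core lay within 50 bp of the summit at 106 of the 1048 sites (10.1%), and the looser one at 281 (26.8%). Of the windows that held a site, 12.5% contained the stricter core anywhere, against 2.39% of all 20085 promoter windows. The looser core was in 37.9% and 10.1% of these windows. The next sequences show the 4 strongest promoter sites whose core read along the gene and the 4 strongest whose core read against it, printed on the strand of the gene, 5′ to 3′, with the core in capitals.

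Nsfl1c: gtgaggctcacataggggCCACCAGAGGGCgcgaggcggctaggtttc
Uqcrc1: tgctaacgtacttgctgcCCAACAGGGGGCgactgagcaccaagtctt
Fam133b: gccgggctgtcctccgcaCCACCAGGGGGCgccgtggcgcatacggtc
Copg1: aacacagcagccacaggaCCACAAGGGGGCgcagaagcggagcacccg
Lsm11: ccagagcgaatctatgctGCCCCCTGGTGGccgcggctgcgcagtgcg
Rbm17: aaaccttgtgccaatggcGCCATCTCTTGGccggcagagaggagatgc
Ndufa6: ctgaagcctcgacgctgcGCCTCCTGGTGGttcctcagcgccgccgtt
Faf2: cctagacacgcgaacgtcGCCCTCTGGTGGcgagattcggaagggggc

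These stretches lay at chr2:151494104-151494151 (Nsfl1c, plus strand), chr9:108936598-108936645 (Uqcrc1, plus), chr5:3543748-3543795 (Fam133b, plus), chr6:87887703-87887750 (Copg1, plus), chr11:45945009-45945056 (Lsm11, minus), chr2:11603339-11603386 (Rbm17, minus), chr15:82354412-82354459 (Ndufa6, minus) and chr13:54621656-54621703 (Faf2, plus). The centre of the core was 26 bp (Uqcrc1) to 213 bp (Copg1) before the transcript start in these 8 windows. The genes make a cofactor of the p97 ATPase in membrane fusion (Nsfl1c), a core protein of respiratory complex III (Uqcrc1), a coat protein of Golgi vesicles (Copg1), a protein of histone pre-mRNA processing (Lsm11), a splicing factor (Rbm17), a subunit of NADH dehydrogenase (Ndufa6) and a membrane factor of protein degradation (Faf2). All 8 sites had mean WT CTCF percentiles of 98.5 or more and a RAD21 peak in 4 of 4 WT libraries. The 4 sites with the core against the gene had RAD21 in 16 of 16 libraries, as did Uqcrc1, while Nsfl1c, Fam133b and Copg1 had it in 14.

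Cores read along the gene more often than against it at these sites: 75 along and 31 against among the 106, or 70.8% along. Among all promoter windows with the core, 57.8% of the matches read along the gene. The looser core gave 67.3% at the sites and 55.3% in all windows. Promoter sites with the stricter core were strong, with a median CTCF percentile of 81.4 ± 2.6 (SD, n = 3 WT libraries) against 58.2 ± 5.0 for sites in a window without it. The share with the core was 15.3% in the strongest of 4 equal classes, into which all CTCF sites were split by their mean WT percentile, and 3.74% to 9.86% in the other classes. The windows of the sites were rich in CpG, with a median observed over expected CpG of 0.769 and a GC content of 62.0%, against 0.586 and 57.0% in all promoter windows. That CpG ratio was between 0.761 and 0.782 in every class of CTCF strength.

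RAD21 summits at sites with the core lay past the core, in the direction in which it reads, at 26 of 53, 46 of 80, 40 of 66 and 51 of 74 sites in the 4 WT libraries. CTCF summits lay past the core at 45, 45 and 41 of 106 sites in the 3 WT libraries. The RAD21 shares were 49.1% to 68.9% and the CTCF shares 38.7% to 42.5%, which did not overlap.

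Promoter sites crowded just before the gene start. Of the 2842 sites, 1623 lay upstream and 1219 at or after the start, inside the gene. The 100 bp before the start held 428 sites and the 100 bp before that 367, against 69 to 185 in each of the other upstream steps of 100 bp and 83 to 203 in the downstream ones. Exons and introns were not analysed here.

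**Figure D1:**
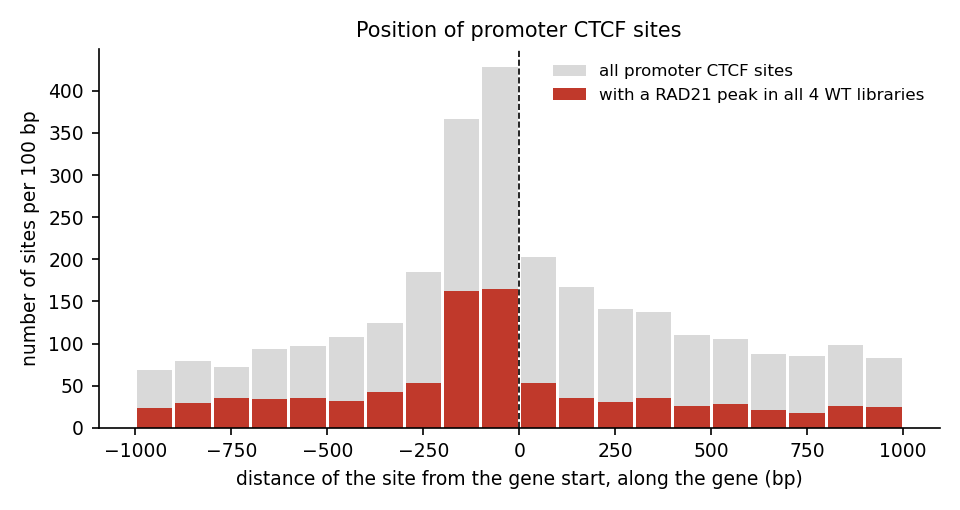
Number of promoter CTCF sites in steps of 100 bp along the gene around its start (x axis in bp, negative values upstream); grey bars are all 2842 sites and red bars those with a RAD21 peak in all 4 WT libraries. The tallest bars are the 2 steps just upstream of the start, with 428 and 367 sites, of which 165 and 163 had RAD21 in all 4.

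The promoter sites belonged to 2795 of the 16457 autosomal protein-coding genes whose strand was given (17.0%), and 233 of these genes had more than 1 site. At 191 sites the start of a gene on each strand lay within 1 kb. Promoter sites made up 4.07% (chromosome 15) to 8.92% (chromosome 19) of the CTCF sites of an autosome, apart from chromosome 18, whose 1419 sites were not analysed as promoter sites because its genes had no strand in the table used. Genes without a strand on other autosomes were also left out, which can lower the share of a chromosome. Their number on each chromosome was not analysed.

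The share of genes with a CTCF site at the start, 17.0% over all genes, varied between gene lists. The highest shares were 9 of 22 for RNA polymerase subunits (40.9%), 9 of 24 for Mediator, the complex that links activators to RNA polymerase II (37.5%), 10 of 31 for proteasome subunits (32.3%), 12 of 38 for NADH dehydrogenase subunits and assembly factors (31.6%), 17 of 60 for cytoplasmic ribosomal proteins (28.3%), 7 of 25 for tRNA synthetases (28.0%) and 16 of 69 for mitochondrial ribosomal proteins (23.2%). Zinc finger genes of the Zfp series (59 of 324, 18.2%), Hox and Evx genes (4 of 24, 16.7%) and core and linker histones (10 of 65, 15.4%) were close to all genes. Olfactory and vomeronasal receptor genes had a site at 10 of 1258 starts (0.795%), and keratin genes at 1 of 87. Cell cycle and replication genes had one at 2 of 28 starts (7.14%), Mcm5, a subunit of the replicative helicase, and Plk1, a mitotic kinase. These counts are descriptions with no test, and related genes in a cluster can share sequence, so their sites are not independent of each other.

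As a class, promoter sites were neither strong nor weak in CTCF. Their median percentile was 45.8, 53.9 and 51.1 in the 3 WT libraries (mean 50.3 ± 4.1, SD, n = 3), against 50.3, 49.7 and 49.9 at the other sites. The promoter median was below the other one in 1 of these libraries and above it in the other two. The 4 classes of CTCF strength, from weakest to strongest, held 26.1%, 24.2%, 21.5% and 28.2% of the promoter sites, so the extremes were filled more than the middle. In 118 promoter sites (4.15%) the peak was in the top 10% in 14 of 14 CTCF libraries, against 720 of the other sites (1.70%).

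Strength followed position. Sites upstream of the start had a median CTCF percentile of 53.7, 62.7 and 59.3 in the WT libraries (58.6 ± 4.6), and sites inside the gene 35.5, 42.7 and 40.8 (39.7 ± 3.7). These ranges did not overlap. Within 100 bp of the start the median was 58.2 ± 5.0, and farther out than 500 bp it was 45.8 ± 3.6, a difference of the same sign in 3 of 3 libraries.

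RAD21 stood lower at promoter sites than at other CTCF sites, in rank and, among strong sites, in detection. Where a RAD21 peak was found, its median percentile was 34.9, 30.8, 31.7 and 33.7 at promoter sites in the 4 WT libraries (32.8 ± 1.9, SD, n = 4) and 51.3, 51.9, 51.6 and 51.5 at the other sites. The promoter median was the lower one in 16 of 16 RAD21 libraries, mutants included, with a range of 30.3 to 38.9 against 50.7 to 51.9. The medians of CTCF, in contrast, were on either side of those of the other sites, lower at promoters in 1 of 3 WT and 3 of 11 mutant libraries.

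**Figure D2:**
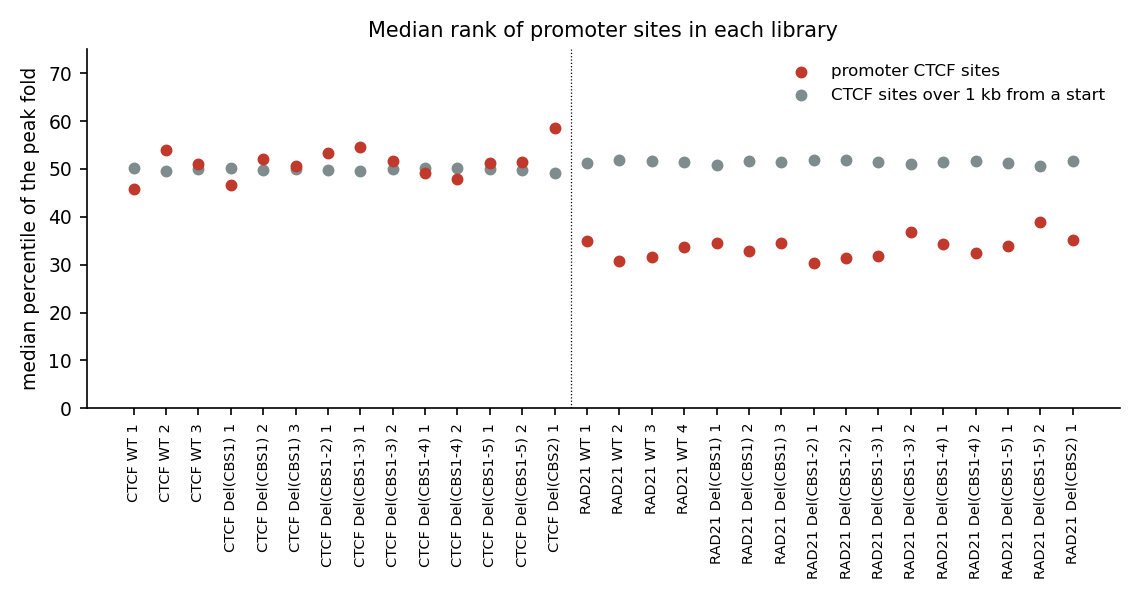
Median percentile of the peak fold (y axis) at promoter CTCF sites (red) and at CTCF sites over 1 kb from a start (grey), over the sites detected in each of the 14 CTCF and 16 RAD21 libraries (x axis). In the CTCF libraries the promoter medians lie between 45.8 and 58.6; in all 16 RAD21 libraries they lie between 30.3 and 38.9, below the grey points.

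The share of promoter sites with a RAD21 peak differed widely between lists. The shares were 36.1%, 66.6%, 55.0% and 53.7% in the 4 WT libraries (52.9 ± 12.6) against 44.2%, 60.9%, 55.5% and 57.2% at the other sites. The lowest share came with the shortest WT list (replicate 1, 22449 peaks) and the highest with the longest (replicate 2, 39841 peaks), but replicate 4, with 34230 peaks, had a lower share than replicate 3, with 32522. The promoter share was below the other share in 3 of the 4. In another setting only the same number of top peaks was taken from each list, the number of autosomal peaks in the shortest list of the antibody. The CTCF sites and their classes of strength were rebuilt from these shorter lists, which gave 2009 promoter and 30413 other sites. The share was then 33.0 ± 0.35% at promoter sites and 48.0 ± 0.29% at the other sites, lower in 16 of 16 libraries.

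The gap was widest at strong CTCF sites. In the strongest class, a RAD21 peak was found at 71.8%, 91.0%, 83.9% and 83.4% of 802 promoter sites (82.5 ± 7.9) and at 90.03%, 97.2%, 95.0% and 95.2% of 10480 other sites (94.4 ± 3.1), and the promoter share was lower in 16 of 16 RAD21 libraries. RAD21 was found in all 16 libraries at 41.0% of these promoter sites and 71.7% of these other sites. Their median RAD21 percentile was 49.2 ± 2.0 against 73.7 ± 2.8.

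In the weakest class the shares were 21.8 ± 11.8% at promoter sites and 16.2 ± 6.4% at other sites, higher at promoters in 13 of 16 libraries. With the same number of top peaks per list the weakest class was a different set, of 472 promoter and 7645 other sites instead of 742 and 10564. In that set the direction was the opposite, at 8.37 ± 1.2% and 13.6 ± 0.65%, higher at promoters in 1 of 16. The strongest class, also rebuilt (626 promoter and 7449 other sites), had the same direction in both settings, at 57.9 ± 2.3% and 87.4 ± 0.73% with equal lists.

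**Figure D3:**
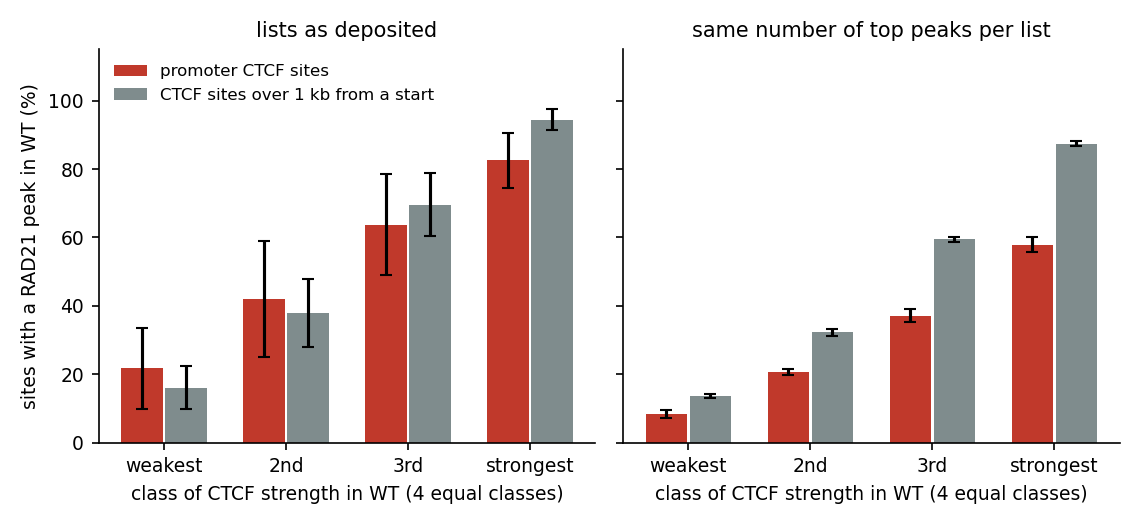
Share of CTCF sites with a RAD21 peak (y axis, mean of the 4 WT libraries; bars show SD) by class of CTCF strength for promoter sites (red) and sites over 1 kb from a start (grey), with all deposited peaks (left) and with the same number of top peaks from each list (right). In the strongest class the red bar is the lower one in both panels, at 82.5% against 94.4% and at 57.9% against 87.4%. In the weakest class the order differs between the panels, whose CTCF sites and classes were built from different lists.

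Promoter sites were also less often at the extremes of RAD21 detection. RAD21 was found in 16 of 16 libraries at 17.1% of promoter and 28.1% of other sites, and in none of the 16 at 13.6% and 25.6%. Of 780 promoter sites with a mean CTCF percentile of at least 75, 8 had no RAD21 peak in any library (1.03%), against 57 of 10078 other sites (0.566%). The strongest of the 8 were at Rcc2, a chromatin-bound regulator of cell division, at CTCF percentiles of 96.3, 96.7 and 93.0, and Myl6, a myosin light chain, at 96.0, 96.6 and 91.6. They were followed by Gm3248, Gm2897 and Zfp423. The Gm3248 and Gm2897 sites lie in predicted genes of chromosome 14 and are uncertain, since reads could be split between similar copies. A share of the RAD21 peaks cover more than 1 CTCF site: 86 of the 2080 promoter sites with a RAD21 peak in any WT list (4.13%) shared it with another site.

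The rank of RAD21 was then tested against the rank of CTCF in the same WT tissue, site by site, with limma on normal scores over the 19055 CTCF sites that had a peak in all 7 WT libraries. Of the promoter sites, 911 could be tested, those with RAD21 in 4 of 4 WT libraries. Of all tested sites, 39% were called in either direction. The RAD21 rank was lower than the CTCF rank at 372 of them (40.8%) at a Benjamini-Hochberg adjusted p under 0.05, where 19.1% of all tested sites were called lower, and it was higher at 94 (10.3%), where 19.9% of all were called higher. The median change was -0.47 normal-score units at promoter sites and 0.03 over all sites. One unit is 1 SD of the ranks.

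The calls differed by CTCF strength. In the strongest class 331 of 538 promoter sites were lower (61.5%), against 27.2% of 9266 other sites. In the weakest class 0 of 31 promoter sites were lower and 16 higher (51.6%). Of 608 other sites in that class 2 were lower (0.329%) and 385 higher (63.3%). The classes and the change share the CTCF values, so sets of sites are compared here within the strongest class. This does not remove the overlap. In that class 14.7% of promoter sites and 6.87% of other sites were in the top 10% in 14 of 14 CTCF libraries. There, 94 of 136 promoter sites within 100 bp of the start were lower (69.1%) and 83 of 145 farther than 500 bp from it (57.2%). Sites with the stricter core were lower at 31 of 42 (73.8%), with a median change of -1.12, and sites in a window without it at 139 of 219 (63.5%), with a median of -1.24, so the share and the median pointed different ways. Of the sites in the 25% of windows richest in CpG, 38 of 60 were lower (63.3%), and in the poorest 25% 37 of 68 (54.4%). CTCF strength also differed between these sets: its median WT percentile was 91.4 ± 2.2 within 100 bp of the start and 87.9 ± 1.3 beyond 500 bp. It was 93.6 ± 2.4 in the windows richest in CpG and 89.1 ± 0.52 in the poorest. With and without the stricter core it was 93.1 ± 2.2 and 92.7 ± 1.9. The differences between sets, and the part of CTCF strength in them, were not tested.

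**Figure D4:**
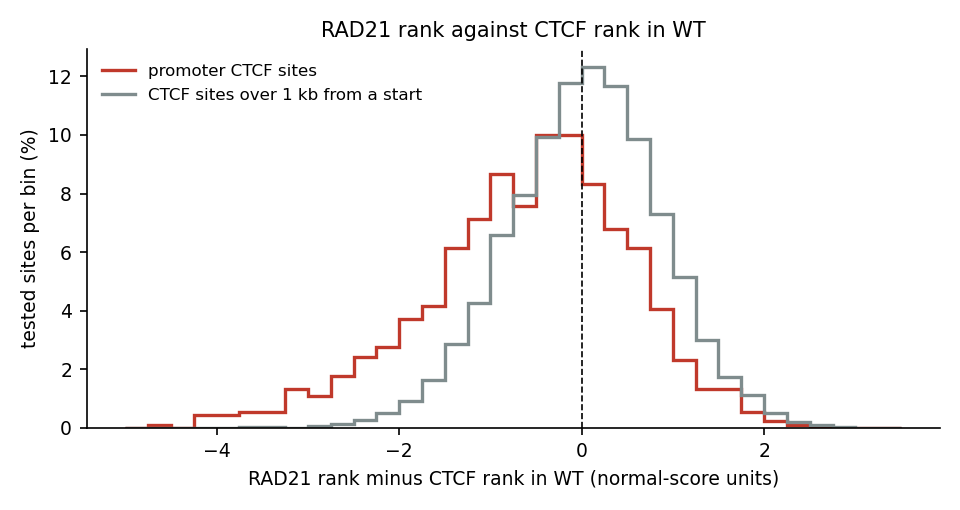
Difference between RAD21 and CTCF rank in WT (x axis, normal-score units from limma, in steps of 0.25) for the 911 tested promoter sites (red) and 17723 other sites (grey), as a percentage of each set (y axis). The red outline is shifted to the left, with a median of -0.47 against 0.06.

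The largest falls were at sites near the top of the CTCF lists. A large fall needs a high CTCF rank and a low RAD21 rank, so this position follows in part from the measure. At Sh3gl1, the gene of an endophilin of endocytosis, the site 107 bp before the start (chromosome 17, 56036766) stood at CTCF percentiles of 99.5, 99.97 and 99.8 and at RAD21 percentiles of 9.06, 2.51, 13.3 and 25.3. All RAD21 percentiles lay far below all CTCF percentiles, each on its own base. The change over the commonly ranked sites was -4.53 ± 0.33 (SE, limma adjusted p = 1.43e-07). At Stxbp3, a syntaxin-binding protein of vesicle fusion, the CTCF percentiles were 99.7, 99.8 and 99.7 and the RAD21 percentiles 3.22, 15.0, 16.4 and 40.4, a change of -4.13 ± 0.28.

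Rab3ip, an exchange factor for small GTPases of secretion, changed by -4.12 ± 0.35, Tmem260, the gene of a transmembrane protein, by -4.11 ± 0.29, and Nus1, a subunit of the enzyme of dolichol synthesis, by -4.01 ± 0.39. At these 3 genes the CTCF percentiles were 99.1 or more and the RAD21 percentiles between 4.19 and 43.8. In the mutant RAD21 libraries Stxbp3 had a peak in 12 of 12, Sh3gl1, Rab3ip and Nus1 in 10 and Tmem260 in 6. The 5 sites lay 69 to 229 bp before the start.

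The 5 largest rises were at Ccdc42, Timm22, Cyp11a1 and the 2 sites of Evx2, which are described with the Hox genes. At Ccdc42, the gene of a coiled-coil protein of sperm, the site 867 bp before the start stood at CTCF percentiles of 11.6, 18.5 and 15.4 and at RAD21 percentiles of 68.5, 62.0, 67.4 and 71.5, a change of 2.29 ± 0.27 (limma adjusted p = 8.08e-06). At Cyp11a1, the enzyme that begins steroid hormone synthesis, CTCF stood at 54.2, 52.8 and 24.4 and RAD21 at 88.3, 84.7, 81.3 and 82.2, a change of 1.96 ± 0.27. Timm22, the channel subunit of a mitochondrial import complex, was strong in both, with CTCF at 84.3, 87.1 and 76.7 and RAD21 at 99.6, 99.7, 99.6 and 98.5, a change of 2.09 ± 0.26. At these 3 sites the RAD21 percentiles all lay above the CTCF percentiles, each over the sites detected in its own library.

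Among the 8 promoter sites with the highest CTCF rank (Stk4, Nsfl1c, Rab2b, Nipsnap2, Rapgef1, Rpl5, Dhx8 and Car7), all with mean percentiles of 99.9 or more, RAD21 ranged from the top of the list to no peak. Dhx8, an RNA helicase of the spliceosome, had RAD21 at 99.1, 99.9, 99.4 and 99.9. Nsfl1c, whose core is printed above, had RAD21 at 43.8, 57.0, 48.2 and 15.98, a change of -3.82 ± 0.30 (limma adjusted p = 2.96e-07). Rapgef1, an exchange factor for the GTPase Rap1, had RAD21 at 44.6, 70.8, 50.8 and 45.9, and Car7, a carbonic anhydrase, at 16.8, 43.3, 47.4 and 47.8.

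Stk4, a kinase of the Hippo pathway, held the highest CTCF rank of all promoter sites, yet it had a RAD21 peak in 3 of 4 WT libraries, at 5.78, 11.3 and 9.60. Rpl5, a protein of the large ribosomal subunit, had one in 2 of 4, at 30.4 and 4.26. Both were therefore left out of the test, as was Rab2b with 3 of 4. The CTCF percentile of these 8 sites stayed at 95.3 or more in 11 of 11 mutant libraries.

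The genes of the CTCF and cohesin machinery had a promoter site at 4 of 21 starts, Ctcf, Smc3, Pds5b and Chd8. At Smc3, a subunit of the cohesin ring, the site 472 bp before the start stood at CTCF percentiles of 99.5, 99.7 and 99.4 and RAD21 percentiles of 65.5, 84.9, 77.6 and 87.9. Pds5b, a regulator of cohesin release, stood at 98.4, 99.9 and 95.8 in CTCF and 77.6, 79.7, 91.5 and 76.7 in RAD21. At Chd8, a chromatin remodeller, CTCF stood at 96.9, 99.7 and 99.9 and RAD21 at 16.8, 37.1, 3.83 and 16.5. The RAD21 rank was lower than the CTCF rank at all 3, by -1.71 ± 0.25, -1.29 ± 0.33 and -3.86 ± 0.35 (limma adjusted p = 6.09e-05, 0.00497 and 9.03e-07). The site 352 bp into Ctcf was weaker, at 57.2, 75.7 and 76.2, with RAD21 in 3 of 4 libraries.

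The Hox list had 5 promoter sites, 2 at Evx2, the homeobox gene beside the Hoxd cluster, and 1 each at Hoxa5, Hoxa10 and Hoxb8, all 3 patterning genes of the trunk. The Evx2 sites lay 198 bp and 449 bp before the start (chromosome 2, 74661718 and 74661969). They stood low in CTCF, at 10.3, 23.6 and 18.5 and at 17.6, 28.7 and 18.5, and they shared the same RAD21 peak in each WT library, at 32.6, 65.7, 78.2 and 71.2. The lowest value of each antibody was in its replicate 1. The RAD21 rank was higher than the CTCF rank by 2.09 ± 0.30 and 1.94 ± 0.29 (limma adjusted p = 4.60e-05 and 8.53e-05), and because the RAD21 peak is shared these are not 2 independent results. Their CTCF values were also the same in 1 of 3 WT and 10 of 11 mutant libraries. By the gene-span start they were the only promoter sites of the Hox list on chromosome 2, and both had a CTCF peak in 11 of 11 mutant libraries, at 3.42 to 36.0 and 5.22 to 36.0. Neither passed the test for CTCF rank in any allele. The smallest limma adjusted p was 0.504, in the single Del(CBS2) library. Both sites stood at 36.0 there, above all WT values of each, with changes of 0.89 ± 0.42 and 0.72 ± 0.41 (SE) and unadjusted limma p of 0.0438 and 0.0939.

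Hoxb8 stood at CTCF percentiles of 93.5, 80.4 and 70.0 and RAD21 percentiles of 74.98, 79.7, 67.0 and 69.8. Hoxa5 stood at 95.4, 92.7 and 60.01 in CTCF and at 94.1, 61.0, 62.4 and 60.4 in RAD21, so replicate 1 was the highest of both antibodies. Hoxa10 was strong in CTCF, at 83.9, 96.2 and 84.4, but had a RAD21 peak in 2 of 4 WT and 4 of 12 mutant libraries.

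**Figure D5:**
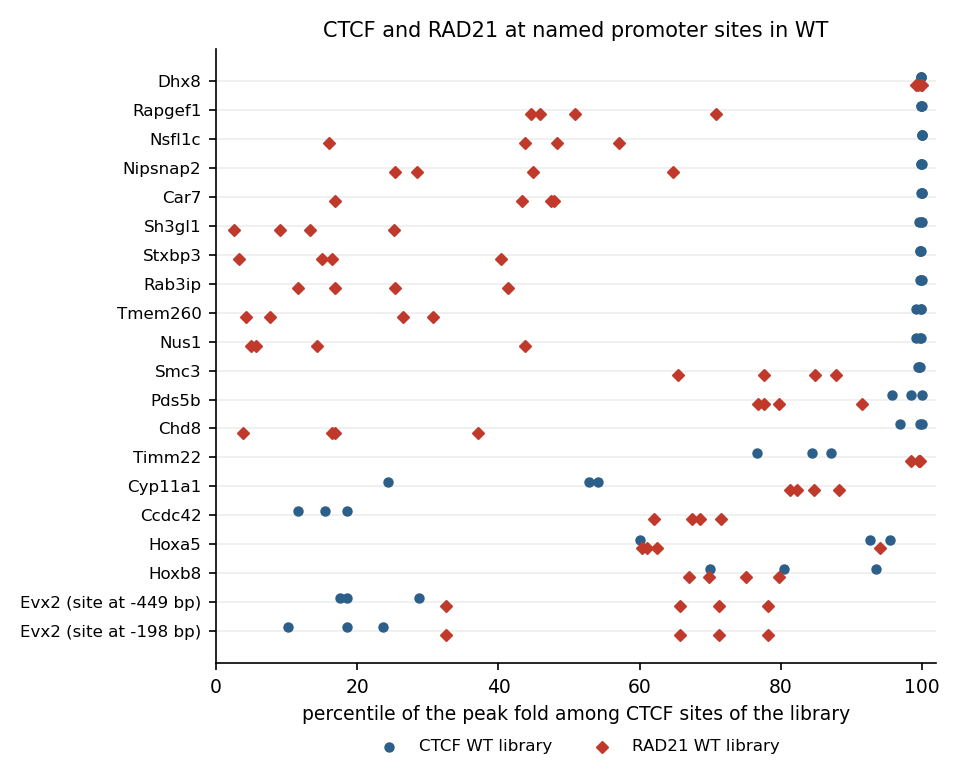
Percentile of the peak fold (x axis) in each of the 3 CTCF (blue circles) and 4 RAD21 (red diamonds) WT libraries at 20 promoter sites named by gene (y axis). The percentile is over the CTCF sites detected in each library, which were fewer for RAD21. At Dhx8 both antibodies sit at 99.1 or more; from Rapgef1 to Nus1 the CTCF points sit at 99.1 or more and every RAD21 point at 70.8 or lower; at Timm22, Cyp11a1 and Ccdc42 the red points sit to the right of the blue ones.

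In the other lists of cell machinery, sites of strong CTCF were found both with and without RAD21. The 12 NADH dehydrogenase sites had a median CTCF percentile of 87.3 ± 0.60, and a RAD21 peak at 47.9 ± 14.2% of them in WT, near the 52.9% of all promoter sites. Ndufb10 stood at 99.6, 99.1 and 99.1 with RAD21 in 1 of 16 libraries, while Ndufa6, at 99.2, 99.2 and 98.0, had it in 16. RAD21 was found in 4 of 4 WT libraries at 911 of all 2842 promoter sites (32.1%). The counts were 1 of 9 RNA polymerase, 3 of 19 ribosomal protein, 2 of 9 Mediator and 2 of 9 tRNA synthetase sites. They were 4 of 12 both for proteasome and for NADH dehydrogenase sites, and 7 of 17 for mitochondrial ribosomal protein sites. Polr3e, a subunit of RNA polymerase III, stood at 85.4, 95.3 and 91.1 with RAD21 in 16 of 16 libraries. Polr2j, a small subunit of RNA polymerase II, stood at 99.8, 99.5 and 99.5 with RAD21 in 3 of 16 libraries and in no WT library. Of the 19 ribosomal protein sites 17 had CTCF in 11 of 11 mutant libraries, against 65.0% of all promoter sites. So did 11 of 12 NADH dehydrogenase, 10 of 12 proteasome and 12 of 17 mitochondrial ribosomal protein sites. The count was 6 of 9 both for RNA polymerase and for Mediator sites, and 4 of 9 for tRNA synthetase sites. Psmc4, a proteasome ATPase, was strong in both, with CTCF at 96.0, 99.2 and 97.5 and RAD21 at 88.6, 95.9, 91.2 and 86.5. Psmd6, another proteasome subunit, stood at 99.2, 99.8 and 99.4 with RAD21 in 1 of 4 WT libraries. Among the 6 Wnt and Fgf sites the median CTCF percentile was 17.4 ± 4.6, and among the 4 forkhead sites Foxd2 was the strongest, at a mean of 46.6.

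Promoter sites were detected in the mutants about as often as other CTCF sites. Both sets were required to have a peak in all 3 WT lists, so a mutant share could only equal the WT share or fall below it. A CTCF peak was present in 11 of 11 mutant libraries at 1848 of 2842 promoter sites (65.0%) and at 65.2% of the other sites. The share detected in a library ran from 72.2% (Del(CBS1-3) replicate 2, 40011 peaks) to 99.7% (Del(CBS1-3) replicate 1, 72244 peaks), and differed from that of the other sites by -2.59 to 1.81 percentage points. The 2 libraries of that allele span the whole range, and the part of list length in it was not tested. The single Del(CBS2) library had the longest CTCF list (88323 peaks) and the highest promoter median, 58.6.

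Few promoter sites had no CTCF peak in any library of an allele. Del(CBS1-4) lacked the most, 209 of 2842 (7.35%, where 7.88% of all CTCF sites were lacking), followed by Del(CBS1) with 116 (4.08%, with 2.87% of all). The single Del(CBS1-2) library lacked 40 (1.41%, with 1.91% of all) and the single Del(CBS2) library 14 (0.493%, with 1.74%). Del(CBS1-5) lacked 13 (0.457%, with 0.443%) and Del(CBS1-3) lacked 7 (0.246%, with 0.568%). These were the weak sites: their median WT percentile was 8.28 to 14.2, and at least 64.3% of them were under percentile 25 in each allele. The counts rest on 1 to 3 libraries an allele and on lists of different length. The strongest loss was at Gm13286, a predicted gene of chromosome 4, with WT percentiles of 83.1, 96.5 and 89.9, no peak in either Del(CBS1-4) library and a peak in 8 of the 9 mutant libraries of other alleles. The Del(CBS1) count was 414 without replicate 1 and the Del(CBS1-5) count 78 without replicate 1 and 31 without replicate 2. The share over all CTCF sites was not analysed for these counts.

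Of the 911 promoter sites with RAD21 in 4 of 4 WT libraries, 64 had no RAD21 peak in either Del(CBS1-5) library (7.03%, where 3.57% of all such sites had none). The count was 10 for Del(CBS1-3) (1.10%, with 0.467% of all), 8 for the single Del(CBS2) library (0.878%, with 1.25%) and 5 for Del(CBS1-4) (0.549%, with 0.205%). It was 4 for Del(CBS1) (0.439%, with 0.241%) and 0 for Del(CBS1-2), where 0.0682% of all had none. The Del(CBS1-5) lists were the shortest pair for RAD21, with 26742 and 16676 peaks, and the part of their length in this count was not tested. With the same number of top peaks per list the Del(CBS1-5) count was 5. It was 267 without Del(CBS1-5) replicate 1 and 182 without WT replicate 1. The Del(CBS1) count was 36 without WT replicate 1, 10 without WT replicate 4, 32 when Del(CBS1) replicate 2 was dropped and 9 when its replicate 3 was. For these alternative counts the share over all sites was not analysed, so they do not compare promoter sites with all sites. The named losses of Del(CBS1-5) were Ankrd6, at WT RAD21 percentiles of 87.8, 88.4, 79.3 and 89.0, Tbc1d9b, at 79.5, 77.9, 71.4 and 70.0, Tsfm and Cnep1r1. A RAD21 peak was present in 10 mutant libraries at Tsfm and in 9 at each of the others, which also lacked it in Del(CBS1) replicate 1. RAD21 was low at Ankrd6 in Del(CBS1-2) replicate 2 (4.00) and at Tbc1d9b and Tsfm in Del(CBS1-3) replicate 2 (9.21 and 7.78). CTCF at Ankrd6 was uneven in WT, at 95.0, 88.1 and 4.47.

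Changes in rank were tested with limma over the sites with a peak in every library of the antibody, 30182 for CTCF, 1848 of them at promoters, and 12643 for RAD21, 485 at promoters. For CTCF, limma called 0 promoter sites in the 5 alleles other than Del(CBS2), against 0% of all sites (0.00331% in the single Del(CBS1-2) library). At an unadjusted p under 0.05 there were 133 promoter sites for Del(CBS1-4) (7.20%, with 7.06% of all sites), 119 for Del(CBS1) (6.44%, with 5.41%), 47 for Del(CBS1-3) (2.54%, with 2.77%), 42 for Del(CBS1-5) (2.273%, with 1.62%) and 17 for Del(CBS1-2) (0.920%, with 1.07%). Fitting limma without trend and robust variances gave no promoter call in these 5 alleles either. For RAD21, limma called 0 promoter sites in the 4 alleles other than Del(CBS1-5) and Del(CBS2), with or without trend and robust variances, against 0% of all sites. At an unadjusted p under 0.05 there were 35 for Del(CBS1-4) (7.22%, with 7.71% of all), 32 for Del(CBS1) (6.60%, with 5.14%), 20 for Del(CBS1-3) (4.12%, with 3.53%) and 5 for Del(CBS1-2) (1.03%, with 1.84%). For both antibodies the promoter share was above that of all sites in some alleles and below it in others. These differences were not tested.

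The calls that were made concerned 4 sites. For CTCF in Del(CBS2) they were 2 of 1848 promoter sites, both higher, where 0.235% of all tested sites were called (0.0596% higher, 0.176% lower). In that single Del(CBS2) library, CTCF rank was higher at Setd2, a histone methyltransferase, at 99.6 against WT values of 48.5, 68.2 and 88.1 (change 2.42 ± 0.50, limma adjusted p = 0.0480), and at Zc3h15, a zinc finger protein, at 98.2 against 56.4, 47.2 and 77.1 (2.17 ± 0.44, adjusted p = 0.0352). Both values lay above all 3 WT values. Setd2 also stood above them at 90.3 in the single Del(CBS1-2) library and 93.4 in Del(CBS1-5) replicate 1, and at 52.3 to 87.7 in the remaining mutant libraries. Zc3h15 did so at 80.2 in Del(CBS1-5) replicate 1, and stood at 30.2 to 76.1 in the rest. This allele had no replicate, and its library is assumed to vary like the other groups. Both calls were lost without WT replicate 1, without WT replicate 2 and in limma without trend and robust variances (adjusted p = 0.0704 and 0.0659), and Setd2 also with peaks of -log10 q of at least 10 (0.0825) and without the weakest 25% of sites (0.0542).

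For RAD21, 1 of 485 promoter sites was called in Del(CBS1-5), where 0.0475% of all were (0.00791% higher, 0.0395% lower), and 1 of 485 in Del(CBS2), where 0.72% of all were (0.0237% higher, 0.696% lower). In Del(CBS1-5), RAD21 rank was higher at Rwdd3, an enhancer of protein sumoylation, at 96.6 and 98.9 against 56.1, 85.1, 74.8 and 80.2 in WT (1.81 ± 0.33, adjusted p = 0.0180). The groups did not overlap, and the call was lost when any 1 WT library or Del(CBS1-5) replicate 2 was left out. RAD21 at Rwdd3 also stood above all WT values in the Del(CBS1-4) libraries (94.6 and 92.9) and the single Del(CBS2) library (94.1), without a call. It stood at 42.6 to 83.5 in the remaining mutant libraries. In the single Del(CBS2) library, RAD21 rank was lower at Tafa2, a secreted chemokine-like protein, at 81.1 against 96.9, 99.3, 99.4 and 98.8 (-1.80 ± 0.41, adjusted p = 0.0263). This call was lost without WT replicate 2, without WT replicate 3 and in limma without trend and robust variances (adjusted p = 0.0616). In the other mutant libraries RAD21 at Tafa2 stood at 94.0 to 99.7. Rank tests cannot see a change shared by all sites.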

How the data were processed

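CTCF and RAD21 ChIPmentation peaks of 30 libraries from E10.5 mouse trunks were analysed, 1 deposited peak list per library on mm10. The submitters' processing notes name MACS2 2.1.1.20160309 beside bedtools 2.27.1, Bowtie2 2.3.5, cutadapt 1.16, Picard 2.19.0 and SAMtools 1.9, and their options are not given in the sources used here. A peak of a deposited list carries a display score, a fold enrichment over local background (a ratio), a -log10 p and a -log10 q, and a summit offset. Depth was unknown because read counts are not part of the authors' files, and a longer list describes how much was called. Fold values were therefore used only as ranks within a list.

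Gene starts were the 5′ ends of RefSeq gene spans (GRCm38.p6), with the strand from the RefSeq promoter table. A strand was given for 16457 of 20665 autosomal protein-coding genes, and the 57 clustered protocadherin genes were among those without one. Ranks were turned into normal scores and fitted with limma 3.58.1 in R 4.3.3 (trend, robust; Benjamini-Hochberg 0.05), over sites with a peak in every library of the antibody, or, for RAD21 against CTCF, in all 7 WT libraries. A lone library of a genotype was taken to have the spread of the other groups. Requiring a peak in every library leaves out sites that were lost. In simulated data with known answers, of 100 planted shifts of 2 units limma recovered 78% and 76% for CTCF and RAD21 in Del(CBS1-5) and 88% in WT, but 11%, 11% and 13% of shifts of 1 unit, with 5, 3 and 2 false calls.

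Sites were named by these rules: the 8 strongest; the 5 strongest without RAD21; up to 5 called sites per direction and contrast; up to 4 lost sites per genotype and antibody; every site of the Hox and cohesin lists; up to 3 of each other list; and those beside the 1 kb limit. The 4 RAD21 losses printed for Del(CBS1-5) follow this rule. The members and the 19 gene lists were chosen with earlier results of these data known. The list of mouse histone genes was corrected after a first match had taken in another gene. Alternatives were a summit within 100 bp, only peaks whose -log10 q reached 10, a promoter within 500 bp, peaks in at least 2 of 3 WT lists, ranks of -log10 p, the same number of top peaks per list, limma without trend and robust variances, the weakest 25% of sites left out, the replicate block and leaving out each library. Another pair was chosen after seeing the data, any transcript start of the promoter table and either end of genes without a strand. The scientific Python stack was scipy 1.17.1, pandas 2.3.3, matplotlib 3.10.9 and numpy 2.4.6 under Python 3.11.15. Replicate lists shared at most 0.0954% of fold values at common sites, so none was a duplicate.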

Additional observations from a re-analysis of the deposited data

Results flagged for a closer look

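In 32 sets of 4 RAD21 WT values, 3 had a sample far from the others by Dixon's gap test, and chance gives about 1 in 20 such sets. At Hoxa5 the RAD21 percentile of replicate 1 was 94.1, against 60.4 to 62.4 in the other WT libraries. At Car7 replicate 1 was low, at 16.8 against 43.3 to 47.8. At Timm22 replicate 4 was the lowest at 98.5 against 99.6 to 99.7, a gap within the top of the list.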

How the results depend on the processing

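At WT, the RAD21 rank was lower than the CTCF rank more often than higher under every alternative run. With peaks of -log10 q of at least 10 there were 175 calls (134 lower, 41 higher), and with the same number of top peaks per list 189 (150 lower, 39 higher). Both test fewer sites. The share of all tested sites that was called was not analysed under the alternatives. The higher calls were 55 within 500 bp of a start, 163 with either end of genes without a strand counted and 155 with ranks of -log10 p. With -log10 q of at least 10 and with equal lists the CTCF sites and their classes were rebuilt, with 1964 and 2009 promoter sites. There the RAD21 share of promoter sites was 37.5% and 33.0%. Its difference from other sites was then -13.8 and -15.0 percentage points (-27.1 and -29.4 in the strongest class of CTCF sites), against -1.58 with all peaks, and the median RAD21 percentile was 35.3 and 36.3. Leaving out 1 WT library kept the direction in the strongest class of CTCF sites (-13.7 to -9.68 points), while over all promoter sites the difference ran from -4.04 to 0.593.

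Counts of rank changes by allele were small and unstable, and the share of all tested sites called was not analysed beside them. CTCF in Del(CBS2), 2 sites, gave 0 with -log10 q of at least 10, 5 with equal lists, 48 with ranks of -log10 p, 0 without trend and robust variances and 4 without the weakest 25% of sites. RAD21 in Del(CBS1-5), 1 site, gave 0 with -log10 q of at least 10 and 2 both with ranks of -log10 p and without trend and robust variances. RAD21 in Del(CBS2), 1 site, gave 0 with a summit within 100 bp, 3 with ranks of -log10 p and 0 without trend and robust variances. CTCF gave 1 in Del(CBS1-2) with either end of genes counted and 1 in Del(CBS1-4) with ranks of -log10 p. With 1 library left out, the counts ran from 0 to 1 for CTCF in Del(CBS1) and Del(CBS1-3), 0 to 2 for CTCF in Del(CBS2), 0 to 5 for RAD21 in Del(CBS1-5) (5 without Del(CBS1-5) replicate 1) and 0 to 1 for RAD21 in Del(CBS2).

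Sites without a peak moved with the lists. CTCF in Del(CBS1), 116 sites, gave 59 with -log10 q of at least 10, 19 with equal lists and 75 within 500 bp, and 116 to 414 with 1 library left out. CTCF in Del(CBS1-5), 13 sites, gave 24 with a summit within 100 bp, 1 with -log10 q of at least 10 and 4 with equal lists, and 13 to 78 with 1 library left out. RAD21 in Del(CBS1), 4 sites, gave 9 with a summit within 100 bp, 1 with -log10 q of at least 10 and 7 with either end of genes counted, and 4 to 36 with 1 library left out. RAD21 in Del(CBS1-5), 64 sites, gave 21 and 5 with the 2 stricter lists, and 65 to 267 with 1 library left out. The causes were not tested, and the shares over all CTCF sites were not analysed for these alternative counts.

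Replicate numbers did not pair the libraries (correlation of same-numbered deviations over 0.1 in 6 of 21 CTCF and 1 of 31 RAD21 pairs). With the replicate block the WT count was 467, RAD21 gave 0 sites in Del(CBS1-5) and 0 in Del(CBS2), CTCF in Del(CBS2) gave 2 (Zc3h15 among them, Setd2 not, at a limma adjusted p of 0.0501), and no other allele gained a call. Without read counts, a weak peak and a missing one cannot be set apart by depth.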
